A study of Mus musculus with 16 samples.

Results

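Genes that write, keep or remove DNA methylation were followed through mouse embryonic stem cells (ESCs) with and without the microRNA cofactor Dgcr8, in normal culture and in mTORi-induced pausing. The 9 members, of 35968 genes in the tables, are the methyltransferases Dnmt1, Dnmt3a and Dnmt3b, the cofactors Uhrf1 and Dnmt3l, the oxidases Tet1, Tet2 and Tet3, and the glycosylase Tdg. They are listed by name for their function, with no threshold on a value, though earlier results of these data were known. All 9 passed the filter on low counts. Wild-type (WT) cells in normal culture, WT cells in mTORi culture, cells labelled Dgcr8 KO in normal culture and cells labelled Dgcr8 KO in mTORi culture gave 4 libraries each, 16 in all. mTORi is an inhibitor of the growth kinase mTOR, and the paused libraries were made on day 2 of it. Each library began with 800000 cells, and poly(A) RNA was sequenced. The labels give neither the inhibitor's name and dose, nor the deleted part of Dgcr8, nor whether the KO cells are 1 clone.

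DNA methylation in mammals is set by Dnmt3a and Dnmt3b, which methylate bare CpG sites, and by Dnmt1, which copies the mark to the new strand after replication. Uhrf1 recognises the half-methylated site and brings Dnmt1 to it, and Dnmt3l, which has no catalytic activity, stimulates the Dnmt3 enzymes. Tet enzymes oxidise 5-methylcytosine, and Tdg cuts out the most oxidised forms so that base excision repair can put back an unmodified cytosine. Dgcr8 binds primary microRNAs for the nuclease Drosha, and ESCs without it lack most mature microRNAs. In ESCs without microRNAs, loss of the miR-290 family has been reported to raise Rbl2, a repressor of Dnmt3 genes.

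The libraries held 88377380 to 116646028 estimated counts. Dgcr8 itself, summed over its transcripts, stood at 45.3 to 49.2 CPM (counts scaled to library size, per 1000000 counts) in WT normal, 50.8 to 56.2 in WT paused, 246 to 256 in KO normal and 173 to 187 in KO paused libraries. It was thus higher in the libraries labelled KO, and since the deleted part is not given, this level does not check the label. The 8 pluripotency markers examined were each at 1 TPM (transcripts per 1000000 transcripts, which takes transcript length into account) or more in all groups and summed to 6210 to 8680 TPM. Fibroblast markers, led by Thy1, summed to 10.3 to 13.8 TPM in WT and 24.3 to 33.1 TPM in KO libraries, and 4 of 8 in WT groups and 5 of 8 in KO groups were under 0.1 TPM. Trophoblast markers were led by Tfap2c in WT normal and KO paused cells and by Krt8 in the other groups. In each group 4 of 8 were at 1 TPM or more, and none was under 0.1 TPM except 2 in KO paused cells. They summed to 41.8 to 50.7 TPM in WT normal, 33.9 to 45.8 in WT paused, 32.6 to 33.1 in KO normal and 61.2 to 68.6 in KO paused libraries. The sum was highest in KO paused cells, where Dnmt3a was lowest and Tet2 highest, but not every marker of the list was higher there. Endoderm markers, led by Lama1, summed to 33.1 to 54.4 TPM in WT and 25.8 to 32.2 in KO libraries. Mesoderm markers summed to 1.84 to 3.11 TPM in normal and 3.85 to 7.6 in paused libraries, and neuroectoderm markers, led by Tubb3, to 91.3 to 146 TPM over all groups. The part of these markers in the differences below was not tested. The labels do not say that the libraries of a group came from separate cultures, so the p-values measure the spread between these libraries, which may be technical. In this bulk RNA, fewer cells of a type and less RNA per cell cannot be told apart.

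Fold changes come from a model of all 16 libraries across 18944 genes (edgeR quasi-likelihood test), with a standard error (SE) and a Benjamini-Hochberg adjusted p over all those genes. "Rose" and "fell" mean an adjusted p under 0.05. Most genes passed that threshold in 4 of the 5 comparisons, so a call alone sets no gene apart and sizes matter more. CPM are used to compare libraries and TPM to compare genes. The comparisons share libraries with each other: both pausing comparisons and both KO comparisons use the same 4 groups.

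In normal culture Dnmt3l had the most transcripts of the 9 members in WT cells, 648 ± 49.9 TPM (SD, n = 4), followed by Uhrf1 at 160 ± 22.8 and Dnmt3b at 157 ± 13.03 TPM, whose libraries overlapped. Dnmt1 followed at 97.4 ± 2.71 TPM, and Dnmt3a (75.4 ± 3.31) and Tet1 (70.7 ± 14.6) overlapped each other. Tdg (35.4 ± 3.28) and Tet2 (33.0 ± 5.36) also overlapped, and Tet3 came last at 1.04 ± 0.16 TPM. The order was different in KO cells in normal culture, where Uhrf1 led at 224 TPM, Dnmt3l stood at 137 and overlapped Dnmt1 at 119.3, and Dnmt3b was at 31.6 TPM, overlapping Tet2 at 32.6. Dnmt3l led again in KO paused cells at 287 TPM, ahead of Uhrf1 at 143 and Dnmt1 at 116. Tet3 was the lowest member in each of the 4 groups.

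**Figure D1:**
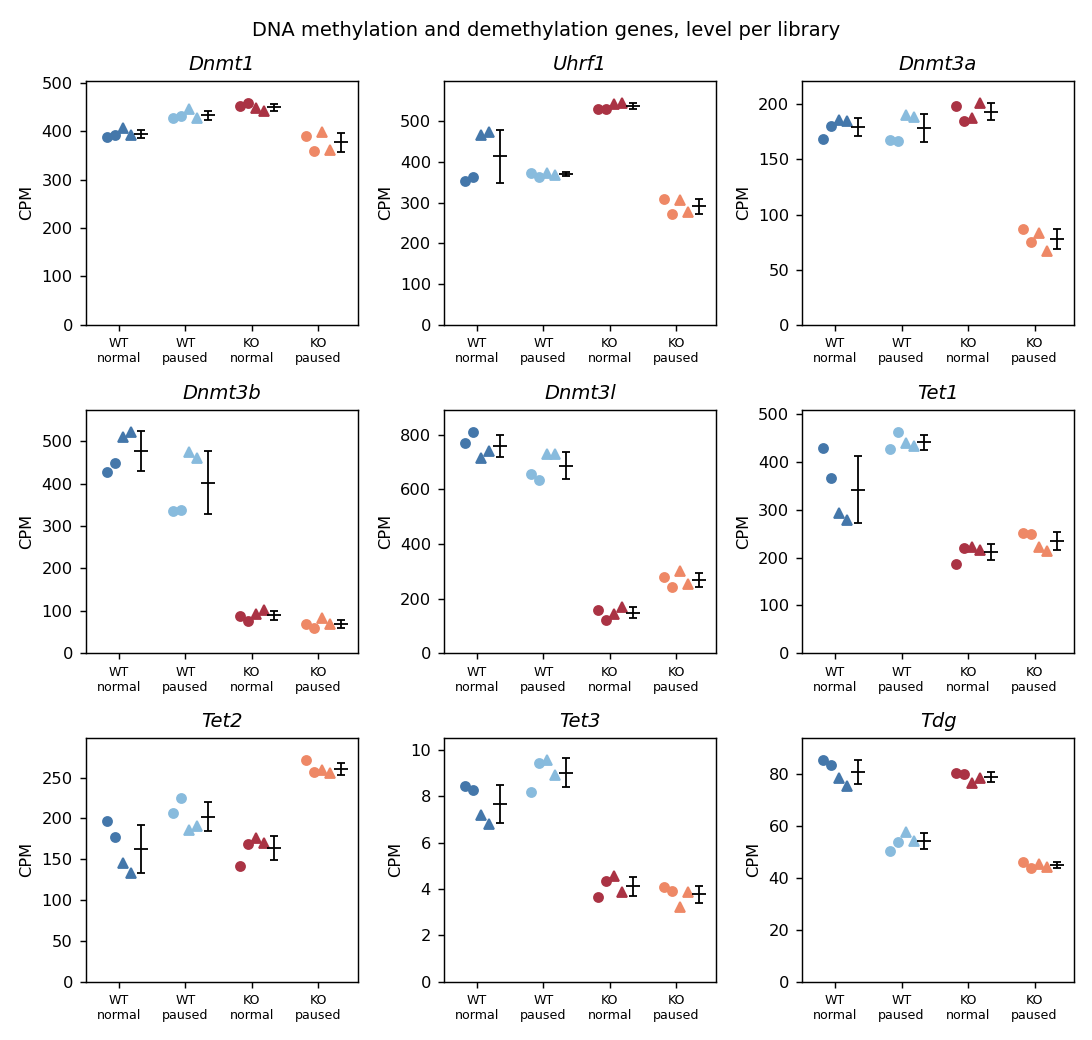
Level of each gene in each of the 16 libraries, in CPM on linear axes from 0, by group (circles are replicates 1 and 2, triangles replicates 3 and 4, black bars the mean and SD of 4 libraries). Dnmt3b and Dnmt3l lie far below WT in both KO groups, and Dnmt3a falls only between the KO groups. In WT normal libraries replicates 1 and 2 separate from replicates 3 and 4 for every gene shown, though barely for Dnmt1.

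Among all 9 members, pausing raised 4 and lowered 1 in WT cells, against 33.3% of all genes raised and 27.5% lowered (60.7% in either direction). In KO cells pausing raised 2 and lowered 5, against 34.4% and 32.8% of all genes (67.2% in either direction). Of the 9 members 6 responded differently to pausing in KO and WT cells, 1 with a higher and 5 with a lower log2 change in KO cells. Of all genes 41.9% passed that test of the difference, 17.4% higher and 24.5% lower. In normal culture 2 were higher and 4 lower in KO than in WT cells, beside 68.2% of all genes in either direction, or 34.1% each way. In paused culture 1 was higher and 8 were lower in KO cells, beside 65.4% of all genes, 30.8% higher and 34.5% lower. The median log2 fold change of the members in that comparison was -0.91, beside -0.03 over all genes tested, and it lay between -0.25 and -0.01 in the other comparisons.

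**Figure D2:**
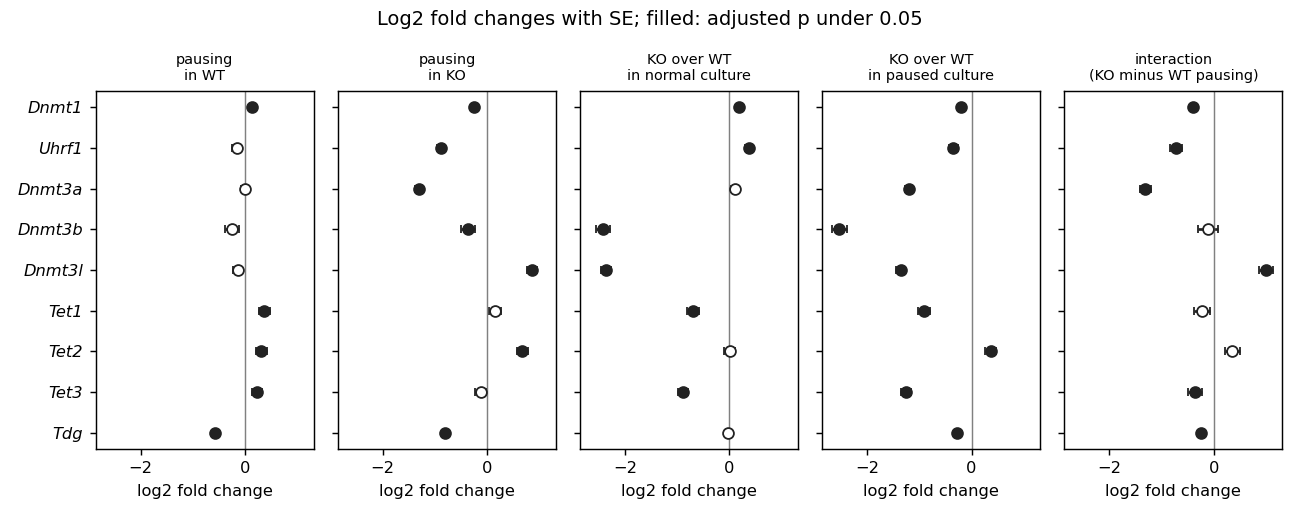
Log2 fold change with SE of the 9 genes in the 5 comparisons (edgeR, 4 libraries per group), with filled points for an adjusted p under 0.05. The points furthest from 0 are Dnmt3b and Dnmt3l in the 2 KO comparisons, and Dnmt3a moves left by more than 1 in pausing in KO cells and not in WT cells.

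The maintenance pair, Dnmt1 and Uhrf1, was higher in KO than in WT cells before pausing and lower than in WT cells after it. Dnmt1 stood at 387, 392, 406 and 393 CPM in WT normal, 427, 432, 446 and 428 in WT paused, 453, 458, 448 and 441 in KO normal, and 391, 360, 398 and 361 in KO paused libraries. All WT paused libraries were above all WT normal ones, and all KO paused libraries were below all KO normal ones. Its transcripts rose by 0.14 ± 0.04 (log2 ± SE, adjusted p = 0.00271) with pausing in WT cells. In KO cells pausing gave a log2 change of -0.25 ± 0.04 (adjusted p = 3.64e-06), and the difference between these responses was -0.39 ± 0.05 (adjusted p = 7.1e-06). The pausing changes are shifts of 1.1-fold and 1.19-fold between group means.

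Uhrf1 stood at 354, 363, 467 and 474 CPM in WT normal libraries and at 374, 363, 373 and 369 in WT paused libraries. In KO cells the values were 531, 531, 543 and 545 CPM in normal and 309, 273, 306 and 277 in paused culture, 1.85-fold lower, with no overlap. The log2 change of pausing in KO cells was -0.88 ± 0.08 (adjusted p = 3.33e-08), and it differed from that in WT cells by -0.72 ± 0.11 (adjusted p = 7.85e-05). In WT cells the change was -0.16 ± 0.08 (adjusted p = 0.0805), and it depended on the libraries. Replicates 1 and 2 alone gave 0.04 (adjusted p = 0.553), and replicates 3 and 4 alone gave -0.35 (adjusted p = 4.81e-06). DESeq2 on all libraries gave -0.19 (adjusted p = 0.0331). KO cells had more Uhrf1 than WT cells in normal culture (0.38 ± 0.08, adjusted p = 0.000437) and less in paused culture (-0.34 ± 0.08, adjusted p = 0.000959). The difference in normal culture was 0.568 with replicates 1 and 2 alone and 0.205 with replicates 3 and 4 alone, both past the threshold.

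Uhrf1 is transcribed from a pair of start sites in the annotation. The promoters of both, the 250 bases before each start from RefSeq (GRCm38.p6, plus strand of chromosome 17), are shown because the share of transcripts from the downstream start was lower in all paused than in all normal libraries of each genotype. That fall was mostly that of 1 of the 2 transcripts of this start, and a transcript outside it fell too (values below). Capitals mark a match to an E2F motif (TTTCCCGC, TTTCGCGC, TTTGCCGC or TTTGGCGC, searched on both strands), which 1.86% of 32851 such windows hold.
Uhrf1 upstream start, chr17:56303087-56303336: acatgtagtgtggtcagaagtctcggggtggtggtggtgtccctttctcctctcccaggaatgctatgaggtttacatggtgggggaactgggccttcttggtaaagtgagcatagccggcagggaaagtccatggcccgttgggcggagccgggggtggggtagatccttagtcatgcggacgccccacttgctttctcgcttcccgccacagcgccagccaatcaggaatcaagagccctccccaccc
Uhrf1 downstream start, chr17:56304063-56304312: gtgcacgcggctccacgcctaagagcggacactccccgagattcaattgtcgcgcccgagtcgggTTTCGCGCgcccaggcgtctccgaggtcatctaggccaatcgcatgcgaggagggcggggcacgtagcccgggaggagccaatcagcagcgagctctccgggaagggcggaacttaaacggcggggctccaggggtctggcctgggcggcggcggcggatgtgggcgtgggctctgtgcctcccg
The window of the downstream start holds 1 match, beginning 185 bases before the start, and that of the upstream start holds none. CpG dinucleotides number 30 and 10 in these windows, against a median of 6 over all windows. The other member with a match was Dnmt1, in 1 of 3 windows, that of a start used by the minor transcript Dnmt1-203. The windows before the starts of Dnmt1-201 and Dnmt1-202, which held 61.5% to 68.0% and 28.9% to 34% of Dnmt1 TPM, have no match. The window with the match (chr9:20952624-20952873, minus strand) lies shortly downstream of another annotated Dnmt1 start, at 20952979. A window without a match therefore does not mean that no match lies near a start. A match describes the letters in the window and says nothing of whether a factor binds there.

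Of the TPM of 4 full-length coding Uhrf1 transcripts, the 2 from the downstream start held 27.2%, 24.4%, 24.6% and 23.3% in WT normal and 15.1%, 19.3%, 17.3% and 19.5% in WT paused libraries. The shares were 20.8%, 19.1%, 17.3% and 17.8% in KO normal and 10.2%, 9.2%, 8.1% and 8.4% in KO paused libraries. Within each genotype the paused libraries all lay below the normal ones. The TPM of these 2 transcripts was 40.0 ± 1.33 in KO normal and 11.8 ± 1.73 in KO paused cells (SD, n = 4), while that of the 2 others was 174 ± 12.2 and 120 ± 6.31. Single transcripts did not follow the start. Of the downstream 2, Uhrf1-204 had 28.0 and 19.6 TPM in WT normal and paused, and 31.9 and 4.79 in KO cells. Uhrf1-202 had 9.90 and 9.32 in WT, and 8.09 and 7.04 in KO cells. Uhrf1-203, which is not from the downstream start, had 27.4 and 14.8 in WT, and 30.5 and 13.5 in KO cells. The grouping by start was made after the transcript values had been seen, so it carries no test. kallisto, the program the authors used, divides reads between overlapping transcripts by likelihood, and such shares are estimates.

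**Figure D3:**
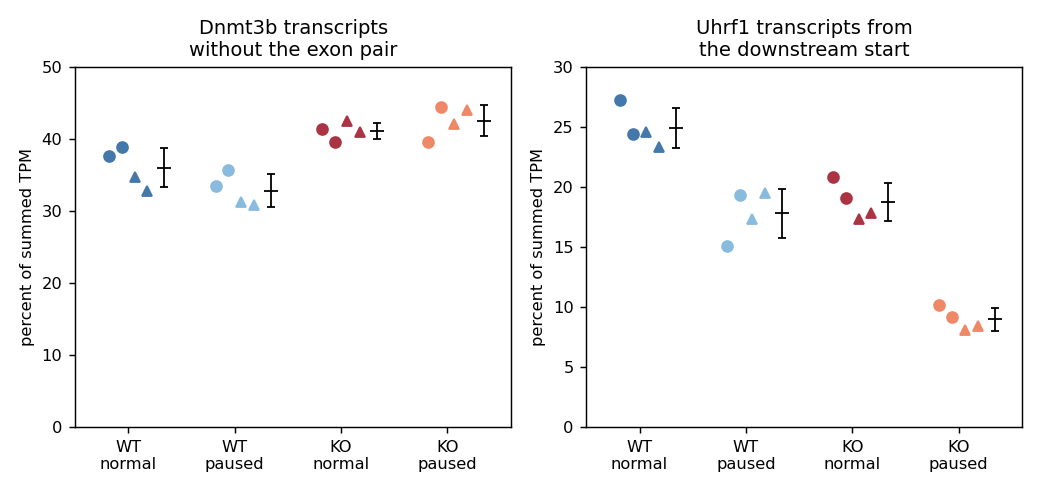
Share of a gene's coding TPM, in percent per library, held by the Dnmt3b transcripts without an exon pair (left) and by the Uhrf1 transcripts of the downstream start (right); circles are replicates 1 and 2, triangles replicates 3 and 4, bars the mean and SD of 4 libraries. The Uhrf1 share is 8.1% to 10.2% in KO paused libraries, below all others, and the Dnmt3b share is 39.6% to 44.4% in KO libraries against 30.8% to 38.8% in WT libraries.

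Among the de novo methyltransferases, Dnmt3a stood in normal KO culture near its WT level and was 2.48-fold lower in paused than in normal KO cells, whereas Dnmt3b was already low in KO cells before pausing. Dnmt3a stood at 168, 180, 186 and 184 CPM in WT normal, 168, 167, 191 and 189 in WT paused, 198, 185, 188 and 201 in KO normal, and 87.1, 74.7, 82.9 and 66.8 in KO paused libraries. Libraries of the other 3 groups lay between 167 and 201 CPM, and the 4 KO paused libraries lay below all the others. The log2 change of pausing was -0.01 ± 0.07 in WT cells (adjusted p = 0.928) and -1.31 ± 0.07 in KO cells (adjusted p = 2.5e-11), a difference of -1.30 ± 0.10 (adjusted p = 2.89e-08). KO and WT cells differed by 0.11 ± 0.07 in normal culture (adjusted p = 0.181) and by -1.20 ± 0.07 in paused culture (adjusted p = 8.67e-11).

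Dnmt3b stood at 428, 448, 511 and 522 CPM in WT normal, 336, 338, 473 and 460 in WT paused, 86.7, 77.0, 91.7 and 102 in KO normal, and 69.0, 58.7, 82.0 and 69.2 in KO paused libraries. The highest KO library was at 102 and the lowest WT library at 336 CPM, so the genotypes were far apart. Dnmt3b was 5.34-fold lower in KO than WT cells in normal culture (log2 -2.42 ± 0.14, adjusted p = 8.64e-10) and 5.77-fold lower in paused culture (-2.53 ± 0.14, adjusted p = 7.02e-10). Pausing itself changed it by -0.25 ± 0.13 in WT cells (adjusted p = 0.122) and by -0.36 ± 0.13 in KO cells (adjusted p = 0.0277). The KO call was lost without replicate 1 (adjusted p = 0.0668) or replicate 4 (0.137). The interaction was -0.11 ± 0.19 (adjusted p = 0.664). In WT cells replicates 1 and 2 alone gave -0.38 (adjusted p = 0.00136) and replicates 3 and 4 alone -0.15 (0.158), and DESeq2 on all libraries gave -0.28 (adjusted p = 0.0453).

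Dnmt3l, the cofactor without catalytic activity, was low in KO cells like Dnmt3b but rose with pausing in them. It stood at 769, 811, 715 and 739 CPM in WT normal, 656, 634, 730 and 730 in WT paused, 160, 122, 143 and 170 in KO normal, and 278, 243, 301 and 253 in KO paused libraries. Every KO paused library was above every KO normal one and below every WT one. KO cells had 5.13-fold less than WT cells in normal culture (log2 -2.35 ± 0.09, adjusted p = 2.49e-12) and 2.55-fold less in paused culture (-1.35 ± 0.09, adjusted p = 1.7e-09). With pausing it rose 1.82-fold in KO cells (0.86 ± 0.09, adjusted p = 3.51e-07). In WT cells the change was -0.14 ± 0.09 (adjusted p = 0.182). It passed in a fit of only those 2 groups (-0.19, adjusted p = 0.0224), and was -0.29 with replicates 1 and 2 alone (adjusted p = 0.104) and -0.002 with replicates 3 and 4 alone (0.991). The responses of the genotypes differed by 1.00 ± 0.13 (adjusted p = 1.41e-05).

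The promoters of the 2 members lowest in KO cells relative to WT are shown for comparison, since they moved together between genotypes and apart with pausing in KO cells (250 bases before the start, RefSeq GRCm38.p6, plus strand, CpG dinucleotides in capitals). For Dnmt3l, which has 3 starts in that table, the window before the start of transcript Dnmt3l-201 is shown. That transcript held 24.1% to 43.0% of Dnmt3l TPM per library, less than Dnmt3l-208 in each of them. The start of Dnmt3l-208 is not given here.
Dnmt3b, chr2:153649199-153649448: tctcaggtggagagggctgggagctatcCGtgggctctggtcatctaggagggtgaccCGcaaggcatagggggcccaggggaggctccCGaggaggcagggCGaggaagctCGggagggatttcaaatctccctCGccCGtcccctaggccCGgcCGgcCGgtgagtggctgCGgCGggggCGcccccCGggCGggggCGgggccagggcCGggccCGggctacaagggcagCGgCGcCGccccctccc
Dnmt3l, chr10:78049592-78049841: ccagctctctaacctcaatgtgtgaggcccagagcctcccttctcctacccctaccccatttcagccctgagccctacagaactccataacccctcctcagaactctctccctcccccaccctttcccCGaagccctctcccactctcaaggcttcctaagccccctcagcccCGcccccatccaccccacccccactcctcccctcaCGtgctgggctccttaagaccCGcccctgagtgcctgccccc
The Dnmt3b window holds 21 CpG and the Dnmt3l window 4, and the other windows of Dnmt3l hold 5 and 3. Over 32851 windows the median was 6, with quartiles of 2 and 16. The window of Tet2 holds 51 CpG, more than nearly all others (percentile 99.9), and the Dnmt3a windows hold 38, 40 and 15.

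The balance of Dnmt3a and Dnmt3b transcripts differed between genotypes. On the TPM scale their sum was 232 ± 16.02 in WT normal, 252 ± 37.8 in WT paused, 118 ± 9.69 in KO normal and 67.4 ± 7.64 in KO paused cells (SD, n = 4). Dnmt3a supplied 31.7% to 34% of that sum in WT normal, 33.8% to 38.6% in WT paused, 71.5% to 75.2% in KO normal and 52.4% to 58.7% in KO paused libraries. Dnmt3b transcripts therefore made up most of the pair in both WT groups, and Dnmt3a transcripts most of it in both KO groups. TPM and CPM are not interchangeable between groups here. The median log2 ratio of mean TPM was taken over 12065 genes with at least 1 TPM in all groups. It was 0.28 for pausing in WT and 0.175 for pausing in KO cells. For KO over WT it was 0.17 in normal and 0.08 in paused culture. The CPM medians of these comparisons were near 0.

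**Figure D4:**
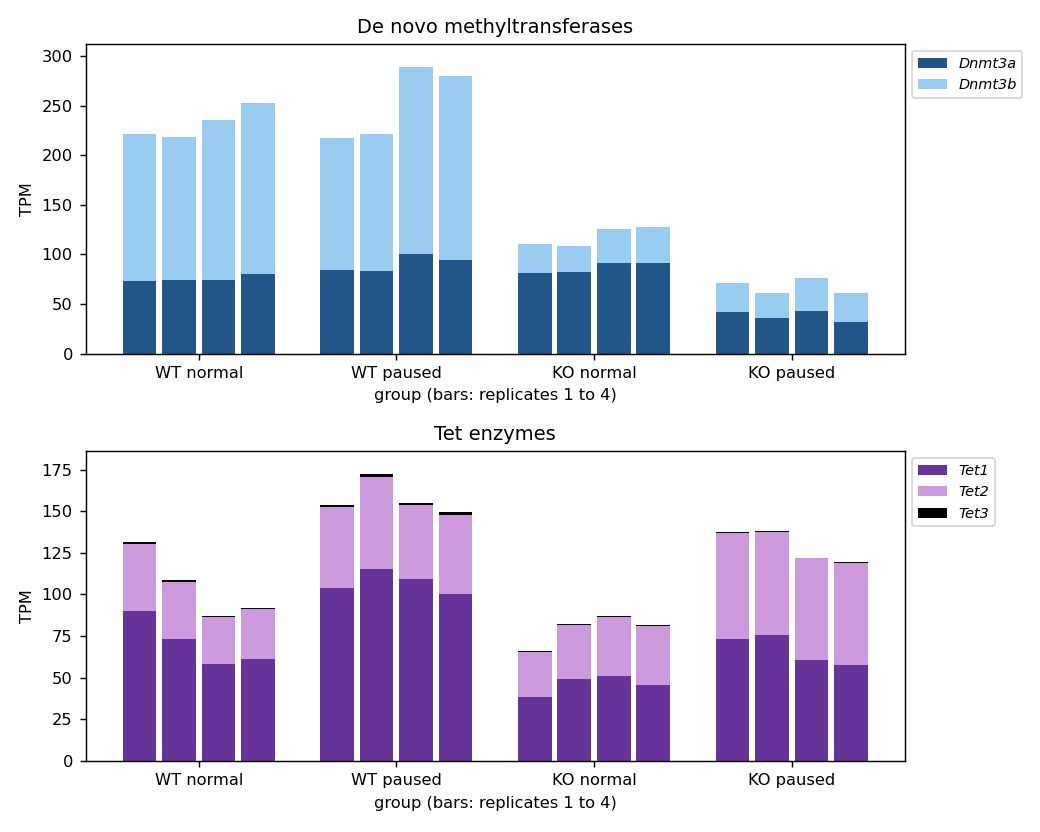
Summed TPM per library of the de novo methyltransferases (top: Dnmt3a dark, Dnmt3b light) and of the Tet enzymes (bottom: Tet1 dark, Tet2 light, Tet3 black), 4 bars per group for replicates 1 to 4. Dnmt3b makes up most of the upper bars in WT libraries and Dnmt3a most of them in KO libraries, and Tet3 is barely visible, with means of 0.58 to 1.47 TPM.

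Dnmt3b transcripts differ by a pair of exons (chr2:153683608-153683677 and chr2:153684359-153684477, GRCm38, plus strand), 189 bases together, which is a whole number of codons. Forms of Dnmt3b that lack this region of the catalytic domain are known as inactive. The 4 of 10 coding transcripts without the pair held 37.6%, 38.8%, 34.7% and 32.8% of coding Dnmt3b TPM in WT normal and 33.5%, 35.7%, 31.2% and 30.8% in WT paused libraries. In KO normal they held 41.4%, 39.6%, 42.4% and 40.9%, and in KO paused 39.6%, 44.4%, 42.1% and 44.0%. All KO libraries were above all WT libraries. The TPM of both kinds was lower in KO cells: forms without the pair had 54.5 in WT normal and 12.8 in KO normal cells, and forms with it 97.7 and 18.3. Single forms without the pair differed. In paused culture Dnmt3b-204 held 12.5% of all Dnmt3b TPM in KO and 0.002% in WT cells. Dnmt3b-208 held 22.1% in KO and 26.8% in WT cells there, with overlapping libraries. In normal culture Dnmt3b-208 held 33.2% in KO and 30.1% in WT cells. The grouping by exon pair, too, was made after seeing the values and has no test.

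Tet1 and Tet3 were lower in KO cells in both cultures, and Tet2 was not. Tet1 stood at 430, 366, 294 and 278 CPM in WT normal, 428, 464, 440 and 434 in WT paused, 188, 221, 222 and 216 in KO normal, and 251, 251, 223 and 215 in KO paused libraries. All KO libraries were below all WT libraries, and WT normal replicates 1 and 2 were above replicates 3 and 4. KO cells had 1.61-fold less in normal culture (log2 -0.69 ± 0.11, adjusted p = 4.5e-05) and 1.88-fold less in paused culture (-0.91 ± 0.11, adjusted p = 2.96e-06). In normal culture the size depended on the libraries: -0.96 with replicates 1 and 2 alone and -0.39 with replicates 3 and 4 alone, both past the threshold. Pausing raised Tet1 in WT cells (0.37 ± 0.11, adjusted p = 0.00886), a call lost without replicate 3 (adjusted p = 0.073), without replicate 4 (0.052) and with replicates 1 and 2 alone (0.16, adjusted p = 0.182). Replicates 3 and 4 alone gave 0.60 (adjusted p = 4.36e-09). In KO cells the change was 0.15 ± 0.11 (adjusted p = 0.244; 0.33 and 0.0118 on length-scaled TPM counts), and the responses differed by -0.22 ± 0.16 (adjusted p = 0.279). That difference was -0.45 without replicate 1 (adjusted p = 0.0134), -0.60 with replicates 3 and 4 alone (1.15e-06) and 0.13 with replicates 1 and 2 alone (0.496), so it depended on the libraries.

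Tet2 stood at 197, 177, 145 and 133 CPM in WT normal, 207, 226, 186 and 190 in WT paused, 142, 169, 176 and 169 in KO normal, and 271, 257, 259 and 256 in KO paused libraries. The KO paused libraries were above all the others. It rose 1.59-fold with pausing in KO cells (0.67 ± 0.10, adjusted p = 3.46e-05) and was higher in KO than WT cells after pausing (0.37 ± 0.10, adjusted p = 0.00569). In WT cells it rose with pausing by 0.31 ± 0.10 (adjusted p = 0.0168). That call was lost with replicates 1 and 2 alone (0.21, adjusted p = 0.0674) and without replicate 2, 3 or 4 (adjusted p from 0.0621 to 0.0808). The responses of the genotypes differed by 0.36 ± 0.15 (adjusted p = 0.0625 in edgeR and 0.0218 in DESeq2). In normal culture the genotypes differed by 0.01 ± 0.10 (adjusted p = 0.945), with -0.27 for replicates 1 and 2 alone (adjusted p = 0.0252) and 0.31 for replicates 3 and 4 alone (adjusted p = 1.05e-05).

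Tet3 stood at 8.42, 8.28, 7.17 and 6.78 CPM in WT normal, 8.19, 9.42, 9.55 and 8.90 in WT paused, 3.67, 4.36, 4.57 and 3.88 in KO normal, and 4.08, 3.91, 3.23 and 3.89 in KO paused libraries. All KO libraries lay below all WT libraries. The KO cells had 1.86-fold less than WT cells in normal culture (log2 -0.90 ± 0.10, adjusted p = 1.51e-07) and 2.39-fold less in paused culture (-1.26 ± 0.10, adjusted p = 1.85e-09). The rise with pausing in WT cells (0.23 ± 0.09, adjusted p = 0.0381) was small and was lost with replicates 1 and 2 alone (0.08, adjusted p = 0.537) and without replicate 2, 3 or 4. In KO cells the change was -0.13 ± 0.10 (adjusted p = 0.263). The difference between the responses was -0.36 ± 0.14 (adjusted p = 0.0399), and it was lost without replicate 2, 3 or 4 (adjusted p from 0.104 to 0.358).

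Tdg fell with pausing in both genotypes. It stood at 85.3, 83.5, 78.5 and 75.2 CPM in WT normal, 50.3, 53.8, 57.8 and 54.4 in WT paused, 80.4, 79.9, 76.4 and 78.4 in KO normal, and 46.2, 43.6, 45.4 and 44.3 in KO paused libraries. Paused libraries were below normal ones in both genotypes, with KO paused lowest. The log2 change was -0.58 ± 0.05 in WT (adjusted p = 2.3e-09) and -0.81 ± 0.05 in KO cells (adjusted p = 1.99e-11). The 2 changes differed by -0.23 ± 0.06 (adjusted p = 0.00613), which was lost without replicate 2 (adjusted p = 0.0506) or replicate 4 (0.055). Genotypes differed by -0.03 ± 0.04 in normal culture (adjusted p = 0.524) and by -0.27 ± 0.05 in paused culture (adjusted p = 3.89e-05). Together the Tet enzymes summed to 105 ± 20.1, 158 ± 10.04, 79.2 ± 9.09 and 129 ± 9.85 TPM in WT normal, WT paused, KO normal and KO paused cells. Tet2 held 30.5% to 32.5% and 28.6% to 32.2% of that sum in the WT groups, and 39.3% to 43.3% and 44.7% to 51.3% in the KO groups.

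Since Dgcr8 acts through microRNAs, mature sequences of microRNA families that have been reported to act on these genes, or on Rbl2, are shown beside sites in the 3′ UTRs, with the seed (bases 2 to 8) in capitals (RefSeq). The miR-290 and miR-302 families, which are abundant in ESCs, share 1 seed and the miR-29 family has another.
mmu-miR-291a-3p: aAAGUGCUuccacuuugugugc
mmu-miR-294-3p: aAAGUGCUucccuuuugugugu
mmu-miR-302b-3p: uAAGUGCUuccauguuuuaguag
mmu-miR-29a-3p: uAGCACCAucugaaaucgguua
mmu-miR-29b-3p: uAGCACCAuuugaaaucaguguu
The longest annotated 3′ UTR of each member (GENCODE M21) was searched on its sense strand for the matching 7 bases, AGCACTT for miR-290 and miR-302 and TGGTGCT for miR-29. As examples, 1 site each is given for Rbl2, Tet3, Dnmt3b, Dnmt3a and Tdg, with up to 10 bases on either side and the matching bases in capitals. Tet3, Dnmt3a and Tdg hold further sites of the same family, and the sites of Tet1 and Tet2 are not printed.
Rbl2, miR-290 site: ttttcaataaAGCACTTataaatta
Tet3, miR-290 site: cttcttccccAGCACTTtgaagaaact
Dnmt3b, miR-29 site: tagcccggcaTGGTGCTcatgttctct
Dnmt3a, miR-29 site: ggtcccaagcTGGTGCTaattcctctc
Tdg, miR-29 site: gcattttccaTGGTGCTacagacagcc
A miR-290 match was found in 3 of 9 members (Tet1, Tet2 and Tet3, 6 sites), and in 14.7% of 21020 genes. A miR-29 match was found in 6 of 9 members (Dnmt3a, Dnmt3b, Tet1, Tet2, Tet3 and Tdg, 29 sites), and in 13.1% of genes. Many of these 3′ UTRs are long (Tet1 7962 bases, Dnmt3a 6696, Tet3 5669), and among 5376 genes with at least 2000 bases the shares were 35.1% and 30.3%. Dnmt1, Uhrf1 and Dnmt3l have 3′ UTRs of 312, 984 and 273 bases and hold neither a miR-290 nor a miR-29 match. The miR-148 family (TGCACTG) and miR-22 (GGCAGCT) were searched as well. A miR-148 match was found in 3 of 9 members (Dnmt1, Uhrf1 and Tdg), and in 12.7% of genes. For miR-22 it was 5 of 9 (Uhrf1, Dnmt3a, Tet1, Tet2 and Tet3), and 12.8% of genes. Among the genes with at least 2000 bases these shares were 28.1% for miR-148 and 27.5% for miR-22. The members lower in KO cells in both cultures, Dnmt3b, Dnmt3l, Tet1 and Tet3, include both holders and non-holders of the miR-290, miR-29 and miR-22 matches. None of them holds a miR-148 match. Rbl2 itself stood at 12.8, 11.4, 7.50 and 6.99 CPM in WT normal libraries and at 8.07 to 9.20 CPM in KO normal ones. Its log2 change between genotypes was -0.20 ± 0.14 in normal culture (adjusted p = 0.226) and -0.07 ± 0.14 in paused culture (adjusted p = 0.69). Replicates 1 and 2 alone gave -0.46 in normal culture (adjusted p = 0.000242) and replicates 3 and 4 alone 0.15 (adjusted p = 0.123), so its direction differed between the pairs of libraries. A match says nothing about whether a microRNA acts on it in these cells.

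Below the gene level, 35 transcripts held at least 5% of their gene's TPM in some group, and their shares were compared with an exact permutation test (two-sided, 70 splits of 4 against 4). The smallest p this design gives is 0.0286, or 0.0755 after adjustment over the 140 tests, so none passed. Shares of 14 (pausing in WT), 13 (pausing in KO), 10 (KO over WT in normal culture) and 16 (KO over WT in paused culture) of the 35 transcripts did not overlap between groups. Over 33445 transcripts the background was 24.9%, 35.0%, 19.6% and 25.8%. Dnmt3l-201 held 24.6%, 24.1%, 31.0% and 30.9% of Dnmt3l TPM in WT normal libraries and 41.6% to 42.7% in WT paused ones, and 39.5% to 43.0% in the KO groups. Its counterpart Dnmt3l-208 held 67.5% to 73.7% in WT normal libraries and 53.1% to 58.6% in the others. Dnmt3b-204 held at most 0.35% in any WT library, 0.04% to 4.51% in KO normal and 7.66% to 15.2% in KO paused libraries, on a total that was itself low in KO cells. Transcripts annotated with a retained intron held 25.7% to 30.3% of Tet2 TPM in WT normal and 32.1% to 34.9% in WT paused libraries, and 24.4% to 27.7% and 31.5% to 37.6% in the KO groups, with no overlap in either genotype. For Uhrf1 they held 4.13% to 4.92% and 5.63% to 5.88% in WT, and 3.92% to 4.70% and 7.26% to 8.77% in KO cells. The mean share was higher in paused than normal cells of both genotypes for 5 of the 8 members with such a transcript (Dnmt3b, Dnmt3l, Tet2, Uhrf1 and Tdg), with Dnmt3b at 2.76% and 4.68% in WT and 1.75% and 5.87% in KO cells. For Dnmt1, Dnmt3a and Tet3 it was lower in paused WT and higher in paused KO cells (Dnmt1 3.02% and 2.14% in WT, 2.01% and 2.63% in KO). Over 6847 genes with such a transcript the mean share was higher in paused cells for 56.4% in WT, 76.1% in KO and 50.8% in both, so this is near what genes in general did. It is a description without a test.

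Genes that work with these enzymes were counted in lists by role, chosen with earlier results of these data known. The part of these genes in the members' changes was not tested. Of 9 partners of maintenance methylation, pausing raised 2 and lowered 6 in WT and raised 2 and lowered 7 in KO cells (of all genes, 60.7% and 67.2% were called in either direction). The largest fall was that of Pclaf, a factor bound to the replication clamp (-1.51 ± 0.07, adjusted p = 6.24e-12 in WT; -1.53 ± 0.07, adjusted p = 3.01e-12 in KO). Pcna, the clamp itself, fell by 0.44 in WT and by 0.87 in KO cells on the log2 scale, with a difference between genotypes of -0.44 ± 0.07 (adjusted p = 4.08e-05). Of 23 S-phase genes, pausing raised 6 and lowered 13 in WT and raised 2 and lowered 18 in KO cells, beside 27.5% and 32.8% of all genes lowered. For 14 the response was lower in KO than WT cells and for 0 higher, beside 24.5% and 17.4% of all genes. Among these, Ccne1, a cyclin of S-phase entry, gave -1.14 ± 0.08 in WT (adjusted p = 1.16e-09) and -2.69 ± 0.08 in KO cells (adjusted p = 7.22e-14). 

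Among 20 regulators of de novo methylation and Tet targeting, 5 were higher and 8 lower in KO than WT cells in normal culture, and 8 and 8 in paused culture, where 68.2% and 65.4% of all genes were called. Prdm14, which is known to hold down Dnmt3 genes in ESCs, was higher in KO cells in normal (1.13 ± 0.12, adjusted p = 2.48e-07) and paused culture (1.14 ± 0.11, adjusted p = 2.03e-07), and stood at 15 ± 2.9, 22.4 ± 2, 32.7 ± 4.23 and 49.3 ± 1.04 CPM in WT normal, WT paused, KO normal and KO paused cells. Dppa3, which keeps Uhrf1 from chromatin, stood at 5.50 to 10.2 CPM in WT normal, 1.80 to 2.67 in WT paused, 0.27 to 0.63 in KO normal and 0.16 to 0.23 in KO paused libraries. It was lower in KO than WT cells in both cultures (log2 -4.32 ± 0.26, adjusted p = 1.75e-10, and -3.44 ± 0.29, adjusted p = 1.46e-08). Zfp57, which protects methylation at imprinted regions, rose with pausing in KO cells by 0.94 ± 0.04 (adjusted p = 2.15e-13). Ogt, a partner of Tet proteins, rose by 0.78 ± 0.07 in KO cells (adjusted p = 3.24e-08), with a difference from WT cells of 0.53 ± 0.10 (adjusted p = 0.000469).

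Of 15 germline genes known to be silenced by promoter methylation, 1 was higher and 10 were lower in KO than WT cells in normal culture (median -0.77), and 2 and 7 in paused culture (median -0.14). Of all genes 34.1% were higher and 34.1% lower in normal culture, and 30.8% and 34.5% in paused culture. Dazl, an RNA-binding protein of germ cells, stood at 12.8 ± 1.1, 22.3 ± 4.48, 2.72 ± 0.34 and 9.53 ± 0.997 CPM in the groups in the order above. It was lower in KO cells by -2.23 ± 0.14 in normal culture (adjusted p = 1.46e-10) and rose with pausing in KO cells by 1.81 ± 0.14 (adjusted p = 2.4e-09). Rpl10l was lower still in KO cells, with -2.69 ± 0.06 in normal (adjusted p = 1.44e-16) and -1.99 ± 0.06 in paused culture (adjusted p = 5.74e-15). With pausing in WT cells Rpl10l fell (-1.04 ± 0.05, adjusted p = 1.24e-11), while Dazl rose (0.80 ± 0.12, adjusted p = 1.85e-05). In WT cells pausing raised 9 and lowered 1 of the list, and in KO cells it raised 8 and lowered 3, beside 33.3% and 34.4% of all genes raised. Of 16 genes of base excision repair and deamination, pausing raised 5 and lowered 8 in WT and raised 3 and lowered 6 in KO cells, where 60.7% and 67.2% of all genes were called. Neil2, another glycosylase, rose in both (1.25 ± 0.10, adjusted p = 2.42e-09; 0.80 ± 0.09, adjusted p = 4.48e-07). Of 7 methyl-CpG readers, 5 were higher and 1 lower in KO cells in each culture, beside 34.1% and 30.8% of all genes higher, Mbd2 among them (0.82 ± 0.06 in normal culture, adjusted p = 1.3e-09). Of 13 tested genes of methyl donor and 2-oxoglutarate supply, 8 were higher and 4 lower in KO cells in normal and 5 and 5 in paused culture, where 68.2% and 65.4% of all genes were called, with Idh1, which makes 2-oxoglutarate, at 1.05 ± 0.09 (adjusted p = 2.9e-08).

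Across the 16 libraries, members differed in which genes followed them, among 9150 candidates. Libraries of 1 group share their treatment, so these values describe the groups' pattern and carry no test. Dnmt3b was most like Fscn1, Mcm2 and Gja1 (Pearson r = 0.995, 0.995 and 0.994), Dnmt3l most like Pim2 (0.993), Uhrf1 most like Eif4h, Fen1 and Ints3 (0.992, 0.985 and 0.984) and Tdg most like Ldha (0.995), while no gene reached 0.96 for Dnmt1, whose closest was Upf1 (0.952). Among the members, Dnmt3b went with Tet3 (0.931) and Dnmt3l (0.909), Tet1 with Tet3 (0.941) and Uhrf1 with Dnmt3a (0.806), and Uhrf1 and Tet2 ran in opposite directions (-0.852). DNA methylation itself was not measured in these libraries.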

How the data were processed

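The authors quantified poly(A) RNA of the 16 libraries with kallisto on GRCm38, per the submitters' processing notes (kallisto version not given in the sources used here). Estimated counts, TPM and effective lengths of 118489 transcripts were deposited, per the file headers, and 116728 transcripts matched GENCODE M21. The 1761 unmatched ones, with 0.656% to 0.712% of a library's counts, were not used. Counts were summed to 35968 genes and rounded. After filterByExpr (minimum count 10) and TMM scaling (factors 0.933 to 1.07), 18944 genes were tested in edgeR 4.0.16 (R 4.3.3) with a robust quasi-likelihood fit of 1 mean per group. Tests were two-sided, with Benjamini-Hochberg adjustment within each of 5 comparisons. The biological coefficient of variation was 0.0852. An SE is the absolute log2 fold change over the square root of F, and CPM use TMM-scaled library sizes. In simulated counts 100 genes were changed by 1 log2 unit and 100 by 0.5. For pausing in WT cells (18647 genes), 95% of changes of 1 log2 unit and 75% of changes of 0.5 were recovered, with 5.56% of calls false. For the interaction (18627 genes) these were 85%, 61% and 8.18%. Far more genes were called in the data (60.7% for pausing in WT), so these rates need not hold for the reported calls.

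The members and the lists were chosen with earlier results of these data known. Named genes are the 9 members, Rbl2, Dppa3, up to 3 genes per list and comparison with the largest change (adjusted p under 0.05, mean log2 CPM of at least 3) and the 3 genes most like each member, not all of them described. Alternatives were DESeq2 1.42.0, its size factors in edgeR, no filter, length-scaled TPM counts, 2-group fits, replicate subsets, a replicate block and, chosen after seeing the data, a term that separates replicates 1 and 2 from 3 and 4.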

Additional observations from a re-analysis of the deposited data

Results flagged for a closer look

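Tet1 in KO normal culture had 1 library apart from the others of its group. Replicate 1 stood at 188 CPM and the other three at 216 to 222 CPM, and the gap to the nearest library was 0.832 of the group's range, just past Dixon's 95% critical value for 4 samples. Of 36 groups examined this was the only one past it, and chance gives about 1 in 20.

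Pausing had a different effect in KO and WT cells for 6 of 9 members by the interaction test of edgeR, with 4 libraries per group, and for 41.9% of all genes. The log2 change in KO minus that in WT cells was -0.389 for Dnmt1, -0.72 for Uhrf1, -1.303 for Dnmt3a, 0.999 for Dnmt3l, -0.361 for Tet3 and -0.234 for Tdg. Dnmt1 moved in opposite directions in the genotypes, past the threshold in both. Dnmt3a, Dnmt3l and Uhrf1 passed it in KO cells and not in WT cells, Tet3 in WT and not in KO cells, and Tdg fell in both. The values of Tet3 and Tdg did not stay past the threshold without each replicate.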

How the results depend on the processing

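Over 13 alternatives, the members' values of KO against WT in paused culture all kept their direction and their call. For KO against WT in normal culture 1 call was gained and 1 was made with the other sign, for pausing in KO 2 gained and 2 lost a call, for the interaction 7 gained and 8 lost one, and for pausing in WT 10 gained and 15 lost one. The sign differed from the reported fit in 14 of the members' values, 8 of them for KO against WT in normal culture (7 Tet2, 1 Tdg), 4 for pausing in WT (3 Dnmt3a, 1 Uhrf1) and 2 for the interaction (Tet1, Dnmt3b), and 1 of the 14 passed the threshold. That was Tet2 for KO against WT in normal culture with replicates 1 and 2 alone (-0.266, adjusted p = 0.0252). With the same replicates Rbl2, which is no member, also passed with the other sign for pausing in WT (-0.308, adjusted p = 0.00552). The number of members called for pausing in WT, 5 in the reported fit, was 3 with replicates 1 and 2 alone and 2 to 6 when each replicate was left out in turn (2 without replicate 3 or replicate 4). The interaction could not be fitted with only the groups of its contrast. The cause of these changes was not tested.

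Replicate numbers are shared by the groups, but same-numbered libraries deviated together with correlations of -0.226 to 0.417, not all over 0.1, and not every library was closest to its own number, so the numbers were not taken as pairs. With a replicate block, 6 members were called for pausing in WT, 7 in KO, 6 for the interaction, 6 for KO against WT in normal and 9 in paused culture. The added member for pausing in WT was Dnmt3b (-0.26, adjusted p = 0.00391).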
